A study of Mus musculus with 2 samples.

Results

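The nuclear receptor family was followed in long-read RNA sequencing of the mouse adrenal gland. The 47 receptor genes were chosen by gene name in the transcript tables of both libraries, and the reads of a receptor are the sum over all of its transcript models. Of the 47, 39 had reads in replicate 2 and 38 in replicate 1, among 18580 annotated genes with reads in either library. The glands came from B6CASTF1/J mice, an F1 hybrid, and every sample was male and 10 days old. The series holds 1 group with 2 biological replicates and no treatment, genotype or time to compare, so the libraries were set against each other to show how far the receptor levels and forms repeat. Both libraries were made from total RNA with spike-in RNAs added, and replicate 2 is labelled with an RNA input of 1 µg. The labels give both samples the same donor and name the animal of replicate 2 in conflicting ways, so it cannot be told whether 1 or 2 animals were sampled. All p-values below therefore set the difference between these 2 libraries against counting error alone, and measure no spread between libraries or animals.

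Nuclear receptors are transcription factors, most of which share a zinc-finger DNA-binding domain and a ligand-binding domain, through which small fat-soluble molecules such as steroids, thyroid hormone, retinoids, oxysterols and fatty acids switch the receptor between corepressor and coactivator partners. Some act as homodimers, many pair with a retinoid X receptor, and the orphan receptors act without a known circulating ligand. In the adrenal cortex Nr5a1 is required for the gland to form and switches on the steroid-making enzymes, Nr0b1 restrains it, and Nr4a1 is induced quickly when the pituitary hormone ACTH stimulates the gland.

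Replicate 2 held 1303420 reads on annotated genes and replicate 1 held 927914, and levels are given as reads per 1000000 of these reads (CPM). A receptor without a read could still hold up to 3 reads, which is 2.30 CPM at the depth of replicate 2, against 3.23 CPM for replicate 1. All intervals are at 95%, exact Poisson for levels, exact binomial for ratios and Clopper-Pearson for shares, and like this limit they cover counting error only. Each long read was counted as 1 transcript molecule, so receptor levels were compared per read without division by length. Whether long transcripts were read less often than short ones was not tested. As for the labelled tissue, all 8 adrenal cortex genes and all 9 chromaffin medulla genes checked were at 10 CPM or more in both libraries, while 5 of 7 kidney genes, Umod, Slc12a1 and Slc34a1 among them, had no read in either. The libraries differed in other markers: 10 liver genes summed to 28431 CPM in replicate 2, against 9524 CPM in replicate 1, 7 skeletal muscle genes to 2874 and 885 CPM, and 8 brown fat and adipose genes to 10738 and 8728 CPM. Cortex markers summed to 22220.0 CPM in replicate 2, against 34086 CPM in replicate 1, chromaffin medulla markers to 6564 and 12972 CPM, and 7 endothelium markers to 513 and 713 CPM. In such bulk samples fewer cells of a type and less RNA per cell cannot be told apart. Each read belongs to a transcript model that the tables class as Known (an annotated transcript), ISM (an incomplete match to one), NIC (annotated splice sites joined in an unannotated way), NNC (with at least 1 splice site that is not annotated) or Genomic (inside the gene without matching its splicing).

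The receptors together took 2702 CPM in replicate 2 and 2320.3 CPM in replicate 1 (2511 ± 270.0, SD, n = 2). Expression was concentrated in a few of them. The 3 with the highest mean level, Nr5a1, Nr2f6 and Nr4a1, held 52.4% of all receptor reads in replicate 2 and 50.8% in replicate 1, and they stood at ranks 335, 343 and 377 among all genes. At 10 CPM or more in both libraries there were 24 of the 39 receptors with reads, beside 43.1% of all annotated genes with reads. At 100 CPM or more in both there were 6: Nr5a1, Nr2f6, Nr4a1, Nr1h2, Rxrb and Pparg. At the other end, 8 receptors had no read in either library: the progesterone receptor Pgr, the oestrogen receptor Esr2, Nr1h5, Hnf4g, Rorb, Esrrb, Nr2e1 and Nr2e3. Nr5a2, the close relative of Nr5a1, had 1 read in replicate 2 and none in replicate 1. Among the first 11 receptors by mean level, 8 of the 10 neighbouring pairs had overlapping SD ranges and only 3 pairs stood in the same order in both libraries. Only Pparg against Nr1h3, and Nr1h3 against Nr2f2, were separated by more than their SDs.

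**Figure D1:**
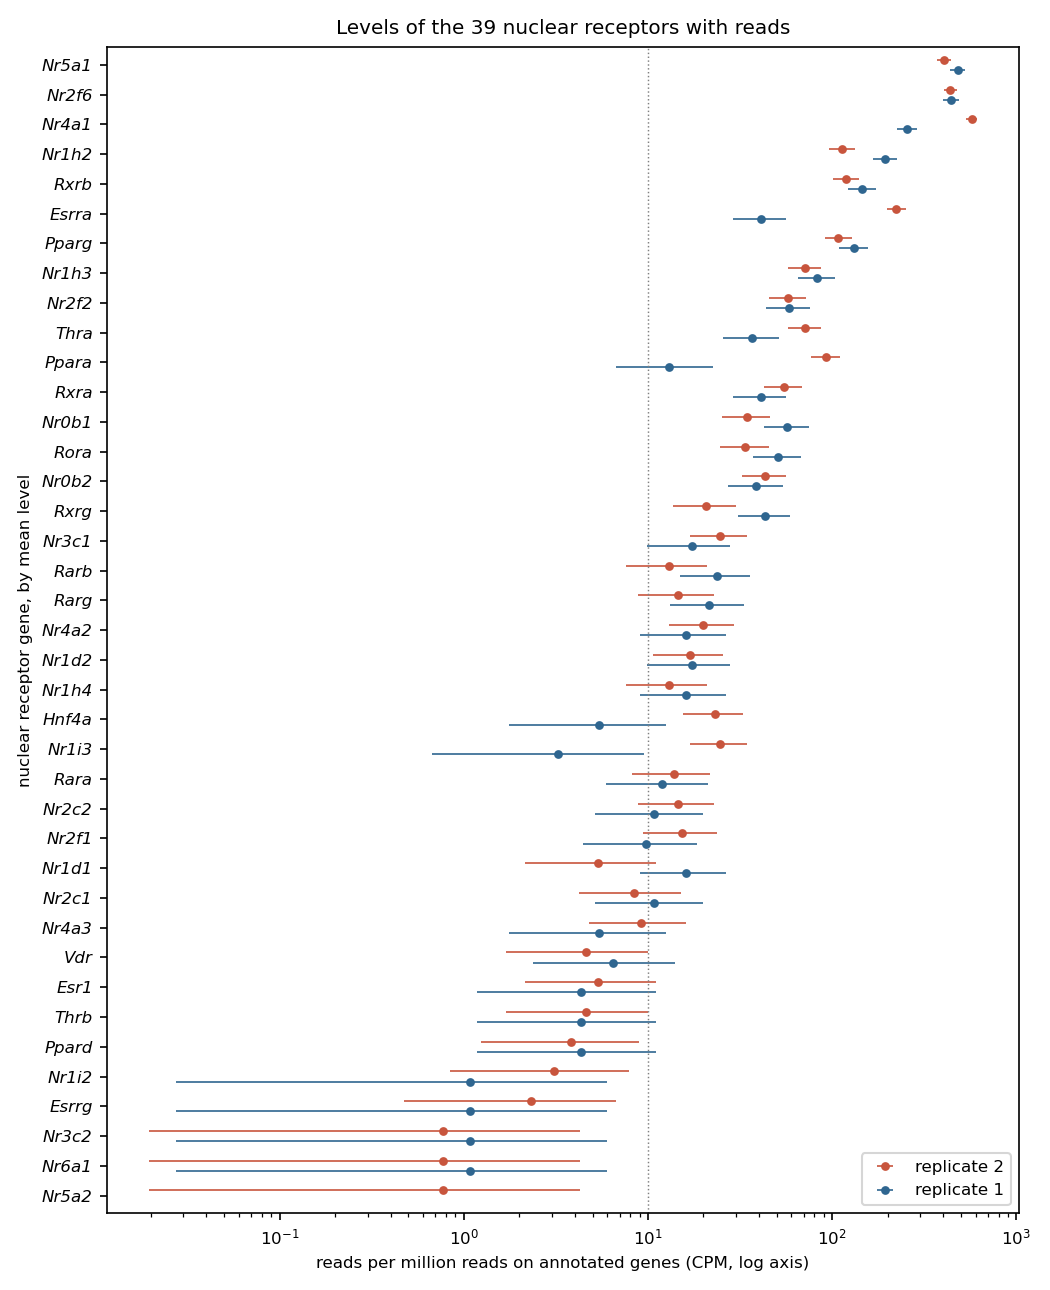
Level of each of the 39 nuclear receptors with reads, in CPM (log axis), for replicate 2 (red) and replicate 1 (blue), with exact Poisson 95% intervals of the reads and a dotted line at 10 CPM. The red and blue intervals lie apart for Nr4a1, Esrra, Ppara, Thra, Hnf4a and Nr1i3 (higher in replicate 2) and for Nr1h2 and Rxrg (lower). Those of Nr2f6 and Nr2f2 coincide, and Nr5a2 is drawn for replicate 2 alone because replicate 1 had no read.

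Of the 33 receptors with at least 10 reads in all, 6 were higher in replicate 2 and 5 were lower, by a two-sided Fisher's exact test adjusted over all 11650 genes tested at a threshold of 0.05. That is 18.2% and 15.2% of the receptors, against 13.0% of all tested genes higher and 22.2% lower in replicate 2 (35.1% in either direction). The other 22 did not pass, and 11 receptors were under 0.05 before adjustment. The 6 higher receptors were Nr4a1, Esrra, Ppara, Thra, Hnf4a and Nr1i3, and the 5 lower ones were Nr5a1, Nr1h2, Nr0b1, Rxrg and Nr1d1. The median log2 ratio of replicate 2 over replicate 1 was -0.01 for the 33 receptors and -0.25 for all tested genes. Scaling by TMM or by DESeq2 size factors adds 0.26 to every log2 ratio, and 7 receptors were then higher and 1 was lower under either scaling, against 16.9% of all genes higher and 11.4% (TMM) or 11.6% (DESeq2) lower. Nr1h2 was the receptor still lower, and Nr2f6 joined the higher ones. The count of lower receptors was 3 (7.69% of those tested, against 12.6% of all genes) without the filter on low counts, 1 (3.13%, against 9.96%) relative to genes of like transcript length and 2 (6.06%, against 10.4%) at 2-fold or more. With annotated transcript models alone 3 receptors were higher, 11.5% of those tested, against 13.6% of all genes. The count of higher receptors was 8 without Genomic models (27.6%, against 13.3% of all genes). It was also 8 relative to genes of like transcript length (25.0%, against 13.2%). Esrra, Nr4a1 and Ppara were the receptors that kept their call under every alternative tried.

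**Figure D2:**
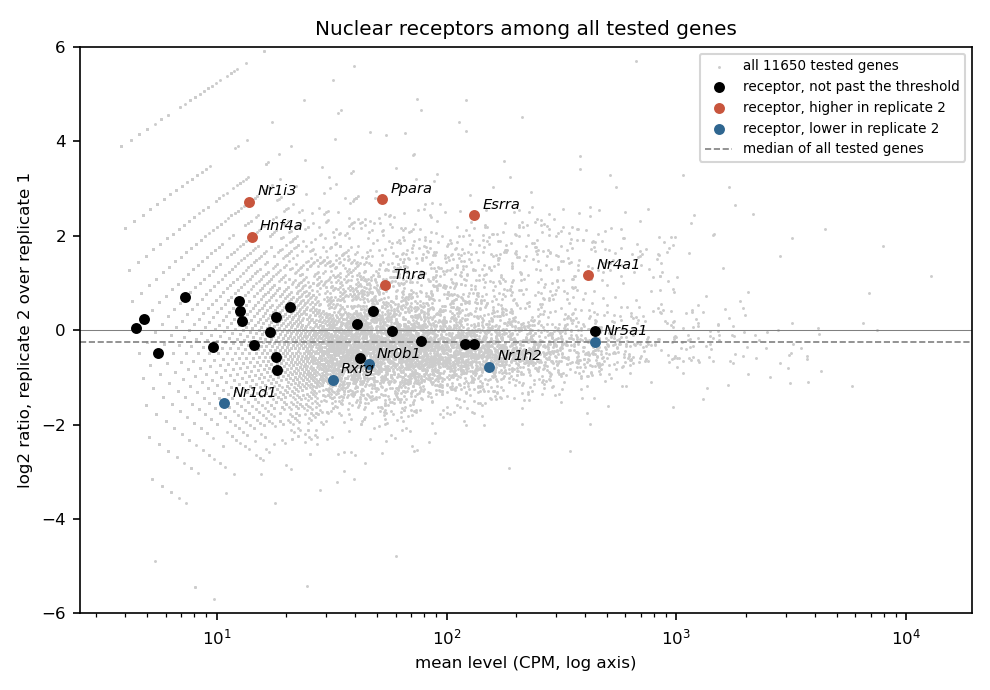
Log2 ratio of replicate 2 over replicate 1 against mean level (CPM, log axis) for tested genes (grey), receptors that did not pass the test (black), those higher in replicate 2 (red) and those lower (blue). The dashed line is the median of all tested genes at -0.25, 10 genes fall outside the vertical range, and Ppara (2.78), Nr1i3 (2.72) and Esrra (2.43) are the receptors farthest above the line.

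Nr5a1, steroidogenic factor 1, was the receptor with the highest mean level. It is annotated at chr2:38692656-38714542 on the minus strand (mm10). It had 529 reads or 406 CPM in replicate 2 and 446 reads or 481 CPM in replicate 1. The difference was small, a log2 ratio of -0.24 with a ratio interval of 0.743 to 0.960 (Fisher's exact test, adjusted p = 0.0296). The sign did not hold under other scalings: the log2 ratio was 0.02 with TMM, 0.01 with DESeq2 size factors and 0.20 relative to genes of like transcript length, none of them past the threshold. It was -0.05 without Genomic models, not past the threshold, and -1.21 with annotated models alone, past it. Nr0b1, an X-linked receptor without a DNA-binding domain that binds Nr5a1 and represses it, had 45 reads or 34.5 CPM in replicate 2 and 53 reads or 57.1 CPM in replicate 1. Its log2 ratio of -0.72 passed narrowly (Fisher's exact test, adjusted p = 0.0406) and was not past the threshold under TMM or DESeq2 scaling, against genes of like length, without the filter on low counts, with annotated models alone or without Genomic models. Every Nr0b1 read in both libraries matched its single annotated transcript. Nr0b2, the other receptor without a DNA-binding domain and a repressor in bile acid synthesis in the liver, had 43.0 CPM in replicate 2 and 38.8 CPM in replicate 1 and did not pass. Summed over Nr5a1, Nr0b1, Nr0b2 and Nr5a2 the level was 484 CPM in replicate 2, against 577 CPM in replicate 1, and Nr5a1 alone made up 15.0% and 20.7% of the level of all receptors.

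The Nr4a receptors are immediate-early orphan receptors. Nr4a1 (chr15:101254269-101274795, plus strand) had 746 reads or 572 CPM in replicate 2 and 237 reads or 255 CPM in replicate 1. It was the highest receptor in replicate 2 and the third in replicate 1, with a 2.24-fold difference (interval 1.93 to 2.60) and a log2 ratio of 1.16 (Fisher's exact test, adjusted p = 1.09e-28). With annotated transcript models alone the log2 ratio was 0.41, still past the threshold. The libraries differed most in models incomplete at the 5′ end: a 6-exon model without the first exon held 244 reads, 32.7% of the gene, in replicate 2 and 11 reads, 4.64%, in replicate 1. Nr4a2 had 26 reads in replicate 2 and 15 in replicate 1, and Nr4a3 had 12 and 5. Neither passed the test, and all 12 Nr4a3 reads of replicate 2 lay in 1 unspliced model that the tables class as Genomic.

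COUP-TF receptors and their relatives are mostly orphan repressors of transcription. Nr2f6, a COUP-TF-related repressor (chr8:71374123-71381960, minus strand), had 572 reads or 439 CPM in replicate 2 and 410 reads or 442 CPM in replicate 1. Its log2 ratio was -0.01 with a ratio interval of 0.873 to 1.13. Relative to the median gene it was higher in replicate 2: the log2 ratio was 0.25 under TMM or DESeq2 scaling and 0.35 against genes of like length, all past the threshold. Genomic models held 91 of the 572 reads in replicate 2 and 17 of the 410 in replicate 1. All 91 stood in 1 model of 5 bases, within Ocel1 on the opposite strand. Without Genomic models the log2 ratio was -0.13, not past the threshold. The other scalings were not tried without these reads. Nr2f2, which encodes COUP-TFII and marks mesenchyme and steroid-cell progenitors in several organs, had 57.5 CPM in replicate 2 and 58.2 CPM in replicate 1 (57.9 ± 0.463, SD, n = 2). The agreement in level hid a difference in the models behind it: 29 of the 75 reads in replicate 2 were Genomic, against 2 of 54 in replicate 1. Nr2f1 had 20 and 9 reads, and the testicular receptors Nr2c2 and Nr2c1 had 19 and 10 reads and 11 and 10 reads, in replicate 2 and replicate 1. None of these 5 passed the test with totals on annotated genes. With Genomic models left out, Nr2f1 had 18 reads in replicate 2 and 2 in replicate 1, and Nr2c2 had 19 and 3, which put both past the threshold, with log2 ratios of 2.46 and 2.06. Of the Nr2c2 reads, 7 of 10 in replicate 1 were Genomic and are left out there, and 10 of 19 in replicate 2 lay in 1 single-exon ISM model of which 3533 of 5599 bases fall within Mrps25 on the opposite strand, so the Nr2c2 ratio is uncertain. Nr6a1, the germ cell nuclear factor, had 1 read in each library.

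Among the oestrogen-related receptors, orphan regulators of mitochondrial and oxidative genes, only Esrra was above the limit set for a count of 0 in both libraries. Esrra (chr19:6910977-6921813, minus strand) had 291 reads or 223 CPM in replicate 2 and 38 reads or 41.0 CPM in replicate 1, a 5.45-fold difference (interval 3.88 to 7.86, log2 ratio 2.43, Fisher's exact test, adjusted p = 4.77e-31). Most of its reads in replicate 2 were not full transcripts. A single-exon Genomic model at chr19:6910834-6911049 held 183 reads, 62.9% of the gene, in replicate 2. A model ending at the same base but starting at 6910977 held 14 reads, 36.8%, in replicate 1. All 216 bases of the replicate 2 model lie in exons of Trmt112, a gene on the opposite strand with 54 reads in replicate 2 and 27 in replicate 1, and only 73 of those bases lie in an Esrra exon. How reads were oriented is not given in the sources used here, so reads of Esrra and Trmt112 cannot be told apart at this place. Without Genomic models the log2 ratio of Esrra was 1.70, and with annotated models alone, which held 94 reads in replicate 2 and 19 in replicate 1, it was 1.90, both past the threshold. Esrrg had 3 reads in replicate 2 and 1 in replicate 1.

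The receptors that sense lipids, bile acids and foreign compounds summed to 453 CPM in replicate 2, against 452 CPM in replicate 1, with members moving in both directions. Nr1h2, the widely expressed liver X receptor for oxysterols, was the most read of them in both libraries. It had 148 reads or 114 CPM in replicate 2 and 180 reads or 194 CPM in replicate 1, a log2 ratio of -0.77 with a ratio interval of 0.468 to 0.732 (Fisher's exact test, adjusted p = 1.17e-05). Nr1h3, the second liver X receptor, had 71.4 CPM in replicate 2 and 83.0 CPM in replicate 1 (77.2 ± 8.22, SD, n = 2) and did not pass. Pparg, the regulator of fat cell formation, had 141 reads or 108 CPM in replicate 2 and 122 reads or 131 CPM in replicate 1 (120 ± 16.5, SD, n = 2) and did not pass either. Ppara, which drives fatty acid oxidation in liver and brown fat, had 120 reads or 92.1 CPM in replicate 2 and 12 reads or 12.9 CPM in replicate 1. Its intervals lay apart, with a 7.12-fold difference (interval 3.93 to 14.2, log2 ratio 2.78, Fisher's exact test, adjusted p = 4.59e-15).

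Hnf4a and Nr1i3 are receptors best known from the liver. Hnf4a, a regulator of hepatocyte genes, had 30 reads or 23.0 CPM in replicate 2 and 5 reads or 5.39 CPM in replicate 1 (log2 ratio 1.98, Fisher's exact test, adjusted p = 0.00392). Nr1i3, the constitutive androstane receptor that controls drug metabolism, had 32 reads or 24.6 CPM in replicate 2 and 3 reads or 3.23 CPM in replicate 1, a 7.59-fold ratio with a wide interval of 2.38 to 38.8 (log2 ratio 2.72, Fisher's exact test, adjusted p = 1.55e-04). With annotated models alone the Nr1i3 ratio was 1.82 on the log2 scale and did not pass. All 9 tested genes of the liver list were higher in replicate 2 as well, with a median log2 ratio of 1.85, and of 8 brown fat and adipose genes 6 were higher and 1 lower, with a median of 0.74. The part of liver or fat RNA in the levels of Ppara, Hnf4a and Nr1i3 was not tested. Of the 30 Hnf4a reads in replicate 2, 21 lay in a single-exon model over the last exon. Nr1i3 shares its locus with Tomm40l on the opposite strand, which had 55 reads in replicate 2 and 56 in replicate 1. The bile acid receptor Nr1h4 had 17 and 15 reads, the ubiquitous Ppard 5 and 4, and the xenobiotic receptor Nr1i2 4 and 1, in replicate 2 and replicate 1.

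Several of these sensors were read in forms that differ inside the coding sequence, and the differing stretch is shown because both libraries held both forms. Nr1h2 transcripts differ by 9 coding bases at chr7:44552237-44552245 on the minus strand, added by an alternative acceptor site. The pairs below are coding sequence of GENCODE M21 transcripts on mm10, with the bases that the shorter form lacks in capitals and 24 shared bases on either side.
Nr1h2-201: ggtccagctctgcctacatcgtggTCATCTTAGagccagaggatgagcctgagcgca
Nr1h2-203: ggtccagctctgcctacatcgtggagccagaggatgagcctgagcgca
The form with the 9 bases encodes 446 codons and the form without them 443. Of reads that splice this intron with a shared donor, 55 of 104 carried the 9 bases in replicate 2, or 52.9% (42.8 to 62.8%), and 86 of 156 in replicate 1, or 55.1% (47.0 to 63.1%). Nr1h4 transcripts differ by 12 bases at chr10:89483372-89483383 on the minus strand, which lie next to the DNA-binding domain in the known Nr1h4 isoforms.
Nr1h4-202: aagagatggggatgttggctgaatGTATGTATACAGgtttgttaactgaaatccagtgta
Nr1h4-201: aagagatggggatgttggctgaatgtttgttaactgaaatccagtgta
The longer Nr1h4 form took 3 of 16 reads in replicate 2 and 5 of 15 in replicate 1. These counts are too few to place the share, whose intervals ran from 4.05 to 45.6% in replicate 2 and from 11.8 to 61.6% in replicate 1. The first exon of Nr1h4 varied too: 8 of 16 reads in replicate 2 and 13 of 15 in replicate 1 began from the upstream first exon.

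Pparg forms differ at the N terminus, where the form typical of fat cells, gamma 2, carries 30 more codons than gamma 1. Those codons span an intron between chr6:115422111 and chr6:115439847 on the plus strand, and the capitals mark the bases present only in gamma 2, beside the first coding bases of gamma 1.
Pparg-201: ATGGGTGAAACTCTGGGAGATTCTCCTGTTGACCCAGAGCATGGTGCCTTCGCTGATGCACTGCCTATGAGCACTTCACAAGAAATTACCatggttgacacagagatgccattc
Pparg-204: atggttgacacagagatgccattc
The gamma 2 transcript encodes 505 codons and gamma 1 encodes 475. Gamma 2 took 33 of 99 coding reads in replicate 2, or 33.3% (24.2 to 43.5%), and 25 of 83 in replicate 1, or 30.1% (20.5 to 41.2%). The intervals of the libraries overlapped. Fat markers were read in both libraries, with Ucp1 at 2927 CPM in replicate 2, against 4451 CPM in replicate 1, and Adipoq at 410 CPM, against 260 CPM. Their part in the Pparg reads was not tested.

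Retinoid X receptors are the shared partners of the thyroid, retinoid and lipid receptors. Rxrb, the most read of them, had 155 reads or 119 CPM in replicate 2 and 135 reads or 145 CPM in replicate 1 and did not pass the test. Rxrg had 27 reads or 20.7 CPM in replicate 2 and 40 reads or 43.1 CPM in replicate 1, a log2 ratio of -1.05 (Fisher's exact test, adjusted p = 0.0146), no longer past the threshold with TMM or DESeq2 scaling or against genes of like length. Rxra had 71 reads or 54.5 CPM in replicate 2 and 38 reads or 41.0 CPM in replicate 1. Most of the Rxra reads were unspliced: a Genomic model over the 3′ exon held 64 reads, 90.1%, in replicate 2, and its counterpart held 20 reads, 52.6%, in replicate 1. Without Genomic models 7 reads were left in replicate 2 and 18 in replicate 1, and the log2 ratio, 0.40 with all models, was -1.73 and passed the test, so the direction for Rxra depends on whether these reads are counted. With all models and against genes of like length, the log2 ratio was 0.89 and Rxra was higher in replicate 2. Rxrb transcripts differ by 12 coding bases at chr17:34036861-34036872 on the plus strand, in the part that encodes the ligand-binding domain.
Rxrb-201: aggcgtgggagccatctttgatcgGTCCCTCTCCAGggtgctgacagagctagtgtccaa
Rxrb-207: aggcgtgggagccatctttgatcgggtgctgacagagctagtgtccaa
Rxrb-201 encodes 524 codons and Rxrb-207, without the bases in capitals, 520. The insert was present in 57 of 128 reads in replicate 2, or 44.5% (35.7 to 53.6%), and in 50 of 126 reads in replicate 1, or 39.7% (31.1 to 48.8%). Forms with a shorter N terminus, of 410 and 414 codons, took 17.8% of coding Rxrb reads in replicate 2 and 22.8% in replicate 1. Rxrg was read mainly as a short form of 340 codons, and the full-length form of 463 codons took 3 of 20 reads in replicate 2 and 4 of 36 in replicate 1.

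**Figure D3:**
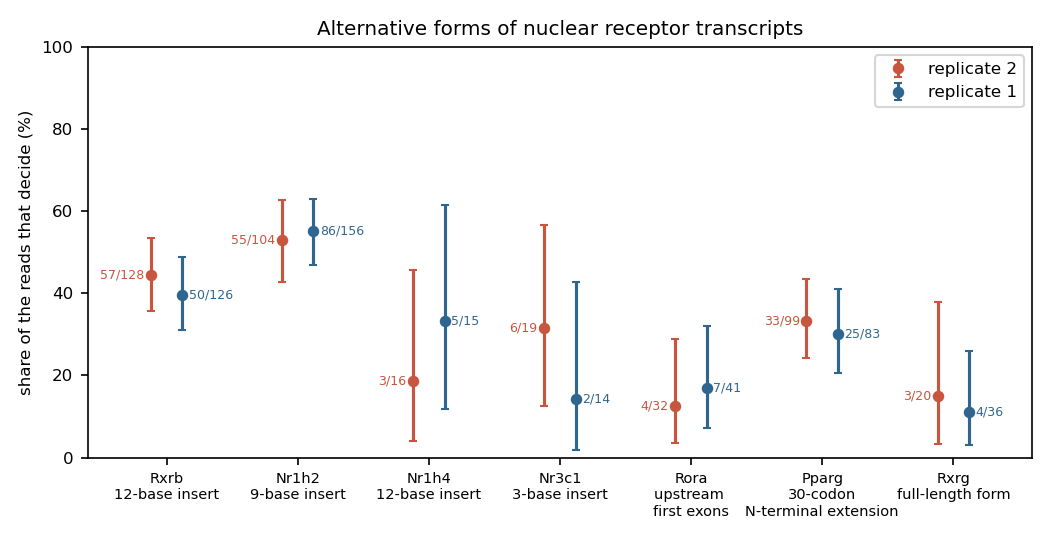
Share of reads (%) that carry 7 alternative forms of nuclear receptor transcripts, with reads over deciding reads beside each point and Clopper-Pearson 95% intervals, for replicate 2 (red, left) and replicate 1 (blue, right). The intervals of the libraries overlap for every form shown, from the Nr1h2 insert at 52.9% and 55.1% down to the full-length Rxrg form at 15.0% and 11.1%.

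Of the thyroid hormone, retinoic acid and vitamin D receptors, Thra was the most read. It had 93 reads or 71.4 CPM in replicate 2 and 34 reads or 36.6 CPM in replicate 1, a 1.95-fold difference (interval 1.30 to 2.98, log2 ratio 0.95, Fisher's exact test, adjusted p = 0.00284). With annotated models alone the log2 ratio was 0.38 and did not pass. Alternative 3′ ends decide what Thra encodes: after 370 shared codons, the hormone-binding form alpha 1 has 40 codons of its own, and alpha 2, which does not bind thyroid hormone, has 122. The capitals mark the first bases after the shared part, on the plus strand at chr11:98764406-98764465 for alpha 1 (Thra-202) and chr11:98768157-98768216 for alpha 2 (Thra-201).
Thra-202: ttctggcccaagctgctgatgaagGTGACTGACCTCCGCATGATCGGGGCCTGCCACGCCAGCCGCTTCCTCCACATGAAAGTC
Thra-201: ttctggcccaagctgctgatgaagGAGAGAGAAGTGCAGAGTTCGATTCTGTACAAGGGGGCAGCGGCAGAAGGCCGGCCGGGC
Alpha 1 took 5 of 24 annotated reads in replicate 2, or 20.8% (7.13 to 42.2%), and 0 of 14 in replicate 1, with an upper bound of 23.2%. Alpha 2 took 17 of 24 and 14 of 14. Another, inner acceptor that shortens the alpha 2 end by 39 codons was used by 7 of 53 reads that splice from this donor in replicate 2 and 5 of 27 in replicate 1. The alpha 2 end overlaps Nr1d1, a clock receptor on the opposite strand, over 1075 bases. A single-exon model in the last exon of Thra, all of it within the Nr1d1 locus, held 19 Thra reads in replicate 2. Thrb had 6 reads in replicate 2 and 4 in replicate 1. The retinoic acid receptors were read at like, low levels, with 17 and 22 reads for Rarb, 19 and 20 for Rarg and 18 and 11 for Rara in replicate 2 and replicate 1, and Vdr had 6 reads in each. None of these 5 passed the test.

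Steroid hormone receptors were few in a gland that makes steroids. The glucocorticoid receptor Nr3c1 had 32 reads or 24.6 CPM in replicate 2 and 16 reads or 17.2 CPM in replicate 1 and did not pass the test. A 3-base insert, which adds 1 codon, was carried by 6 of 19 Nr3c1 reads in replicate 2 and 2 of 14 in replicate 1. The oestrogen receptor Esr1 had 7 and 4 reads in replicate 2 and replicate 1, the mineralocorticoid receptor Nr3c2 had 1 read in each, and Pgr and Esr2 had none. The 5 receptors of this class summed to 30.7 CPM in replicate 2, against 22.6 CPM in replicate 1, the lowest sum of the 9 role groups in both libraries.

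Clock receptors repress (Nr1d1, Nr1d2) or activate (Rora) the core clock gene Arntl. Rora had 44 reads or 33.8 CPM in replicate 2 and 47 reads or 50.7 CPM in replicate 1 and did not pass. Almost all annotated Rora reads were of Rora-202, with 26 of 27 in replicate 2 and 33 of 33 in replicate 1. Unannotated and incomplete models included, 4 of 32 reads in replicate 2 and 7 of 41 in replicate 1 came from upstream first exons. Nr1d2 had 22 reads in replicate 2 and 16 in replicate 1. Nr1d1 had 7 reads or 5.37 CPM in replicate 2 and 15 reads or 16.2 CPM in replicate 1, a log2 ratio of -1.54 (Fisher's exact test, adjusted p = 0.0455) that no longer passed with TMM or DESeq2 scaling, against genes of like length or without the filter on low counts. None of the 7 Nr1d1 reads in replicate 2 matched an annotated transcript in full, against 8 of 15 in replicate 1.

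Receptor reads were less often full annotated transcripts in replicate 2. Known models held 47.5% of receptor reads in replicate 2 (45.8 to 49.1%) and 67.6% in replicate 1 (65.6 to 69.6%), beside 73.9% and 79.8% over all annotated genes. ISM models held 30.2% and 13.1% of receptor reads, beside 13.1% and 8.86% over all genes. Genomic models held 13.6% and 6.73%, beside 6.93% and 2.47%. Single-exon models of any class held 21.3% of receptor reads in replicate 2 and 7.71% in replicate 1, beside 14.3% and 6.53% over all genes. Of the 8 receptors with 50 or more reads in both libraries, 7 had a smaller Known share in replicate 2, 5 of them with separate intervals, and all 8 had a larger single-exon share, 4 with separate intervals. Their Known share ran from 14.7 to 75.2% in replicate 2 and from 25.9 to 87.8% in replicate 1.

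**Figure D4:**
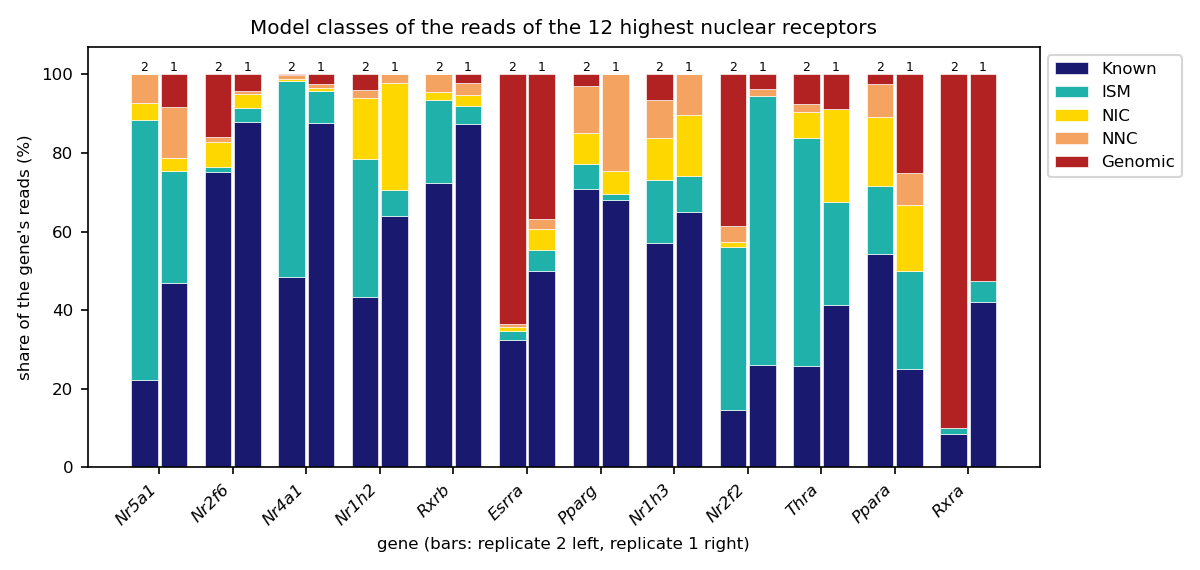
Share of each gene's reads (%) in the 5 model classes for the 12 nuclear receptors with the highest mean level, replicate 2 left and replicate 1 right in each pair. Genomic reads make up most of Rxra (90.1% and 52.6%) and much of Esrra, and ISM reads are larger in replicate 2 for Nr5a1 and Nr4a1.

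Nr5a1 and Nr4a1 reads carried the annotated introns less often toward the 5′ end. For Nr5a1, Known models held 117 reads, 22.1% (18.7 to 25.9%), in replicate 2 and 209 reads, 46.9% (42.2 to 51.6%), in replicate 1. A 4-exon model that keeps the 3′ end held 229 reads, 43.3%, in replicate 2 and 105 reads, 23.5%, in replicate 1. Outside Genomic models, the last of the 6 introns of Nr5a1-201 was spliced in 85.4% of reads in replicate 2 and 99.0% in replicate 1. The first was spliced in 26.3% and 54.0%. Only reads with both splice sites of an intron count here. At the acceptor of the first intron, 139 of 168 reads in replicate 2 and 221 of 276 in replicate 1 came from the Nr5a1-201 donor. At the acceptor of intron 3 the counts were 163 of 187 and 266 of 291. The remaining reads there were spliced from other donors, so a low share does not count incomplete transcripts alone. The intron shares keep 76 single-exon ISM reads of replicate 2 but leave out 37 single-exon Genomic reads of replicate 1. This widens the gap between the libraries at every intron. Over all Nr5a1 reads, single-exon models held 14.4% in replicate 2 and 8.30% in replicate 1. The step came between introns 3 and 4, which 30.8% and 79.4% of reads spliced in replicate 2, against 65.0% and 96.8% in replicate 1. In Nr4a1 the step lay at the first intron, which 48.1% of reads spliced in replicate 2 and 90.5% in replicate 1. Nr2f6, with 3 introns, showed no such step, with 93.1% of reads splicing the first intron in replicate 2 and 95.4% in replicate 1. Pparg had overlapping intervals at every intron, with 46.0% and 44.3% of reads splicing the first in replicate 2 and replicate 1. The gamma 2 transcript does not contain the first 2 introns of Pparg-204. Model ends in the tables mostly sit on annotated exon ends, for 447 of 565 unannotated receptor models (79.1%), so a model's span is not the length of its reads. The 37 Genomic Nr5a1 reads of replicate 1, for example, stand in a model of 5 bases.

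**Figure D5:**
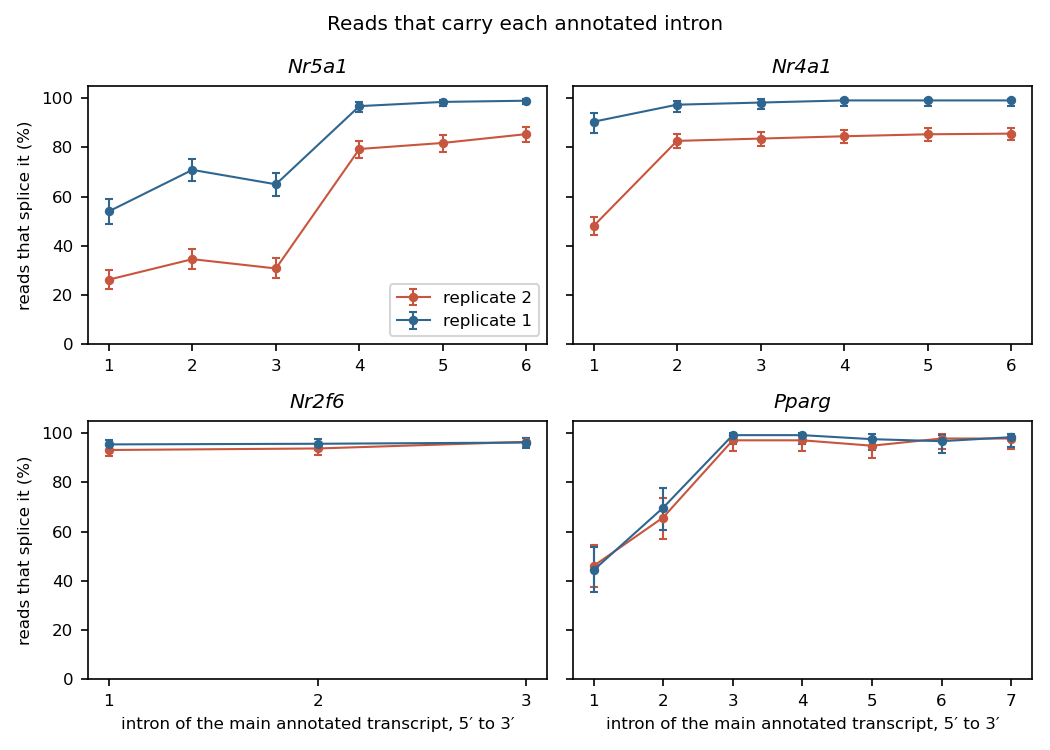
Share of reads outside Genomic models (%) that splice each intron of the main annotated transcript, numbered 5′ to 3′, for Nr5a1, Nr4a1, Nr2f6 and Pparg, with Clopper-Pearson 95% intervals, replicate 2 in red and replicate 1 in blue. Replicate 2 lies below replicate 1 along all of Nr5a1 (26.3% against 54.0% at the first intron) and Nr4a1, while the lines of Nr2f6 and Pparg overlap. Reads that join the acceptor of an intron to another donor are not counted for that intron. For Nr5a1 the shares keep 76 single-exon ISM reads of replicate 2 and leave out 37 single-exon Genomic reads of replicate 1, which widens the gap.

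Isoform shares could be given for 14 receptors with 20 or more annotated reads in a library, 11 of them in both. Of these 11, 3 were read as 1 annotated isoform (Nr0b1, Nr0b2 and Nr2f6) and 8 could be tested for the share of the top isoform. None of the 8 differed between the libraries at an adjusted p under 0.05 by Fisher's exact test, none was under 0.05 before adjustment, and 2.17% of the 3040 genes tested differed. The lowest p was that of Nr1h2-201, with 32.8% of annotated reads in replicate 2 and 42.6% in replicate 1 (Fisher's exact test, adjusted p = 0.922). Nr1h2, Nr1h3, Pparg and Rxrb had 2 or more isoforms in use, meaning that the second took 20% or more in both libraries, against 10.3% of the 4781 genes with enough reads. Rxrb-207 took 44.6% in replicate 2 and 43.2% in replicate 1, Pparg-204 took 59.0% and 56.6%, and Nr1h3-202 took 49.1% and 52.0%. The 3 Nr1h3 isoforms encode the same 445 codons and differ outside the coding sequence. Nr5a1-201 took 97.4% and 94.3% of annotated reads and Nr4a1-201 took 98.6% and 99.5%, in replicate 2 and replicate 1. Nr5a1 also used a splice donor that GENCODE M21 does not list, 108 bases from the annotated one and before the same acceptor, in 20 of 187 reads in replicate 2, or 10.7% (6.66 to 16.0%), and in 17 of 291 in replicate 1, or 5.84% (3.44 to 9.19%). In replicate 2 alone, Ppara had enough reads for shares, and Ppara-202 took 43 of 65.

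Genes around the receptors were called in both directions, and their counts stand beside 13.0% of all tested genes higher in replicate 2 and 22.2% lower. TMM or DESeq2 scaling adds 0.26 to every log2 ratio. Of 19 tested coregulators, 1 was higher in replicate 2 and 4 were lower, with a median log2 ratio of -0.16 beside -0.25 over all genes. Ncor1, the nuclear receptor corepressor, had 55.2 CPM in replicate 2 and 19.4 CPM in replicate 1 (Fisher's exact test, adjusted p = 1.57e-04). Of the 9 chaperones that hold steroid receptors ready, 2 were higher and 6 lower, and with TMM or DESeq2 scaling 2 were higher and 3 lower, Dnaja1, Fkbp4 and Hsp90aa1 no longer passing as lower. Fkbp5, a chaperone partner that glucocorticoids induce, had 68.3 CPM in replicate 2 and 22.6 CPM in replicate 1. Of 13 tested genes for making, carrying or clearing receptor ligands, 3 were higher and 1 was lower: Rbp4, the blood carrier of retinol made mainly in the liver, had 3641 CPM in replicate 2 and 657 CPM in replicate 1, and the thyroid hormone activating enzyme Dio2 was lower, with 19.2 and 50.7 CPM. The vitamin D enzymes Cyp27b1 and Cyp24a1 had no read in either library.

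Target genes were counted in the same way. Of 9 genes that Nr5a1 is known to activate, 2 were higher in replicate 2 (Mc2r and Fdx1) and 6 were lower, with a median log2 ratio of -0.33. With TMM or DESeq2 scaling 3 were higher, Cyp11a1 added, and 4 were lower, without Fdxr and Scarb1. Star, Cyp11a1, Cyp11b1, Cyp21a1, Hsd3b1, Mc2r and Scarb1 also belong to the cortex markers above, so the lists are not separate observations. Cyp11a1, the enzyme that starts steroid synthesis, had 7442 CPM in replicate 2 and 7423 CPM in replicate 1 and did not pass with totals on annotated genes, while Cyp21a1 was lower, with 3568 and 8043 CPM. Of 8 glucocorticoid receptor targets, 3 were higher (Fkbp5, Per1 and Zbtb16) and 2 lower (Dusp1 and Errfi1), with a median of -0.08. Liver X receptor targets had 0 of 7 higher and 3 lower, or 1 lower with TMM or DESeq2 scaling, and Scd2 had 68.3 CPM in replicate 2 and 194 CPM in replicate 1. Among 13 PPAR targets, 3 were higher and 8 lower, with a median of -0.35, and with TMM or DESeq2 scaling 4 were higher and 5 lower. The fatty acid oxidation genes Cpt1a (106 and 174 CPM), Hadha (585 and 916 CPM) and Ehhadh (84.4 and 145 CPM) were lower in replicate 2. Of 9 tested clock genes, Per1 was higher (33.8 and 9.70 CPM) and Per2 (8.44 and 25.9 CPM) and Cry1 (58.3 and 93.8 CPM) were lower, Cry1 no longer with TMM or DESeq2 scaling.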

How the data were processed

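Each library's table holds raw counts, deposited by the authors as the number of long reads per transcript model, with no normalization; exon number, spliced length in bases and 1-based mm10 positions of models (other unit) were also deposited. Per the file headers the models come from TALON on GENCODE M21 with spike-ins; the sources used here do not give the aligner, the TALON version or the way reads were oriented. Receptor reads were summed over all models of a gene. CPM is per 1000000 reads on annotated genes, without spike-ins (2.50% of reads in replicate 2, 1.57% in replicate 1) and unannotated loci. Replicate 2 held 1407511 reads in all and replicate 1 held 971827.

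Genes with at least 10 reads in all were compared by a two-sided Fisher's exact test with Benjamini-Hochberg adjustment over all of them (scipy 1.17.1); 0.5 reads were added before log2 ratios. With 1 library on each side no quasi-likelihood test is possible. Top isoforms were compared in genes with 20 or more Known reads in each library. Alternatives changed the scaling (TMM of edgeR 4.0.16, size factors of DESeq2 1.42.0), the filter, the models counted, the length correction and the fold. Python 3.11.15, numpy 2.4.6, pandas 2.3.3, matplotlib 3.10.9 and R 4.3.3 were used. Reads of genes that overlap on opposite strands are uncertain. The receptors, role groups, pathway and marker lists were chosen with earlier results of these data known. All receptors were accounted for; from the other lists, genes were named from the 4 with the highest mean level and up to 4 called with the largest log2 ratio, except Fdx1, Cyp24a1, Cyp27b1 and some genes whose call changed with the scaling, named after their values were seen; the pathway counts under other scaling were added after seeing the data.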

Additional observations from a re-analysis of the deposited data

Results flagged for a closer look

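Reads that the tables place in unannotated loci on the strand opposite to a receptor, over its exons, enter none of the comparisons above. For 5 receptors they exceeded in both libraries the limit of 3 reads set for a count of 0. Nr2f2 had 188 such reads in replicate 2 and 38 in replicate 1, more than its own 75 in replicate 2 and fewer than its own 54 in replicate 1, and 91 of the 188 and 35 of the 38 were spliced. Thrb had 22 and 6, against 6 and 4 reads of its own. Nr5a1 had 14 and 10, Rarg 10 and 4, and Nr3c1 9 and 4, in replicate 2 and replicate 1. For Nr5a1 and Rarg none of these reads was spliced. How reads were oriented is not given in the sources used here, and its part in these counts was not tested.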

How the results depend on the processing

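No paired analysis was possible because there is 1 group and nothing to pair. Of the 11 receptors called different, 7 kept the call with TMM scaling, 7 with DESeq2 size factors, 11 with all reads as the total, 9 without the filter, 11 with 20 or more reads, 6 with annotated models only, 9 without Genomic models, 7 against genes of like transcript length and 7 at 2-fold or more. The count of receptors higher in replicate 2 was 3 with annotated models only, and 8 both without Genomic models and against genes of like length. The count lower was 1 with TMM, with DESeq2 and against genes of like length, 3 without the filter and 2 at 2-fold or more. The summed level was 1850.2 CPM with annotated models only. Log2 ratios that changed sign and passed the test before or after were those of Nr5a1 (0.0177 TMM, 0.0115 DESeq2, 0.20 like length), Nr2f6 (0.25, 0.25 and 0.35) and Rxra (-1.72 annotated models only, -1.73 without Genomic models). For Rxra the Genomic reads account for the change by construction. For the others the shift of all genes does, except that the cause was not tested for like length. Leaving out replicate 1 or replicate 2, the summed level was 2702 or 2320.3 CPM, the receptors with reads 39 or 38, those at 10 CPM or more 27 or 26, the first 10 receptors kept 9 or 8, the Known share 47.5 or 67.6%, and the receptors with 2 or more isoforms in use 4 or 4. The top isoform test has no value with 1 library. Depth limits receptors under 10 reads, such as Ppard, Esrrg and Nr3c2, to a statement of their reads.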
